A study of Mus musculus with 11 samples.

Results

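The genes described here are 10 that carry Notch signalling or set secretory cell fate in the intestine: the ligands Dll1 and Dll4, the receptor Notch1, the target gene Hes1, and the lineage transcription factors Atoh1, Spdef, Gfi1, Klf4, Sox9 and Neurog3. They were taken by symbol from a table of counts for 54513 genes, and all 10 were present and passed the filter on low counts, which left 19267 genes to test. RNA was sequenced from mouse colonic epithelial cells that had been purified over a Percoll density medium to remove lymphocytes. WT mice were compared with double knockout (DKO) mice, in which the clusters miR-181a1-b1 and miR-181a2-b2 are deleted, either untreated (baseline) or after dextran sulfate sodium (DSS), a detergent that injures the colonic epithelium, given at 2% for 7 days with 2 days of recovery. There were 2 libraries of baseline WT and 3 libraries in each of the groups baseline DKO, DSS WT and DSS DKO. Strain, age and sex are not in the labels, and the labels do not say whether the deletion was limited to 1 cell type. The labels call the libraries of a group biological replicates but do not tie a library to a single mouse; p-values here reflect only the spread among the libraries, which may be technical.

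Notch is a receptor that is activated by a ligand on a neighbouring cell. Cleavage of the receptor releases an intracellular part that joins the DNA-binding protein RBPJ and switches on repressors such as Hes1. In intestinal crypts, cells that receive the signal silence Atoh1 and become absorptive, whereas cells that escape it express Atoh1, display Dll1 and Dll4 to their neighbours, and become goblet, enteroendocrine or other secretory cells.

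The libraries held 41631951 to 52761900 counts. The 12 epithelial markers summed to 17585 to 25054 CPM (counts scaled to library size, with TMM factors) in all 11 libraries and were detected in each of them. Ribosomal RNA from Rn18s-rs5 took 23.0% of counts in baseline DKO library 1 and 8.46% in library 2, against 0.128% to 1.59% elsewhere. The female-specific transcript Xist was at 6.75 to 14.5 CPM in the 5 baseline libraries and 633 to 906 CPM in the 6 DSS libraries, and the Y-linked Ddx3y at 42.6 to 54.9 and 0.162 to 0.895 CPM, so DSS and the sex of the mice cannot be told apart in any DSS comparison. Libraries also differed along GC content and transcript length, whether or not a gene belongs to the pathway. Among the genes in the quintile of highest GC and of more than median length, the median log2 CPM, relative to each gene's mean over the 11 libraries, was 0.49 to 0.80 in the baseline libraries. It was -0.08, -1.16 and -1.07 in DSS WT libraries 1, 2 and 3, and 0.32, -0.23 and -1.09 in DSS DKO libraries 1, 2 and 3. As an alternative chosen after seeing the data, a smooth trend of log2 CPM on GC content and transcript length was removed from each library, and its values are given for each of the 10 genes, and for the named genes of the pathway lists where the call was lost.

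The microRNAs removed in the DKO are miR-181a and miR-181b, and their sequences show what a direct target would have to contain. The mature forms, from RefSeq (GRCm38.p6), are printed with the seed (bases 2 to 8), the part that pairs with a target, in capitals, beside miR-181c and miR-181d, which lie outside the deleted clusters and share that seed.
miR-181a-5p: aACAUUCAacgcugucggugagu
miR-181b-5p: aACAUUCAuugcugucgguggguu
miR-181c-5p: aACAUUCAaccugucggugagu
miR-181d-5p: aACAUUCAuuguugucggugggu
The 3' UTRs annotated by GENCODE for the 10 genes were searched for the 8mer TGAATGTA and for its parts, TGAATGT (7mer-m8) or GAATGTA (7mer-A1), and 0 of the 10 held a match in any annotated transcript. Among 14020 genes with a longest 3' UTR of at least 100 bases, 3308 (23.6%) held one in that UTR, and 3493 (24.9%) held one in any transcript. Matches did lie in other genes of the pathway, of which 3 are shown with the site in capitals (GRCm38): the receptor Notch2 (chr3:98150074-98150081, plus strand, 8mer), the ligand Jag1 (chr2:137082805-137082811, minus strand, 7mer-m8) and the DNA-binding partner Rbpj (chr5:53655995-53656001, plus strand, 7mer-A1).
Notch2: aaccagcgcgtTGAATGTAcgaggactgtt
Jag1: gcaaaaactagTGAATGTgccctggtgtc
Rbpj: acaaagttcaaGAATGTAacaataaaggc
The search covered the 114 listed pathway genes, the 10 included, that were tested and had a 3' UTR of at least 100 bases. Of these, 26 held a match in the longest 3' UTR. After DSS, where 11.2% of all genes tested were called between the genotypes, 2 of the 26 were called, both lower in DKO. They were the tuft cell kinase Dclk1, with 4 matches of which 1 was an 8mer, at -0.97 ± 0.26 (SE, adjusted p = 0.0308), and the enteroendocrine factor Rfx3, with 2 matches, at -0.76 ± 0.16 (SE, adjusted p = 0.0127). Of the 88 without a match, 2 were called higher and 5 lower. The 3 genes shown, picked for their roles in the pathway after their values were seen, were not called. After DSS the log2 fold change of DKO over WT was 0.40 ± 0.28 (SE, adjusted p = 0.395) for Notch2, -0.31 ± 0.23 (SE, adjusted p = 0.408) for Jag1 and 0.13 ± 0.13 (SE, adjusted p = 0.546) for Rbpj (edgeR quasi-likelihood test, Benjamini-Hochberg adjusted). At baseline the adjusted p was 1 for Notch2 and Rbpj, at log2 fold changes of -0.30 and -0.06, and 1.00 for Jag1, at -0.06. A match of letters is a description and not evidence of binding.

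Of the 10 genes, 6 were not called in any comparison or were called in 1 genotype only, and 4 fell after DSS in both genotypes. In WT mice, Dll1, Dll4, Gfi1, Sox9 and Klf4 fell after DSS by 2.22 to 3.65 times, and in DKO mice Dll4, Gfi1, Sox9 and Klf4 fell by 2.08 to 2.98 times, while Atoh1, the factor that commits cells to the secretory lineage, was not called in either genotype. In WT, 5 of the 10 genes were called lower and 0 higher, where 33.4% of all genes tested were called in either direction and 16.5% were called lower. In DKO, 4 of 10 were called lower and 0 higher, where 23.6% of all genes were called and 11% were called lower. The median log2 fold change of the 10 was -1.16 in WT and -0.78 in DKO, and that of all genes tested was -0.01 and 0.01. The baseline and DSS groups did not overlap for 7 of the 10 genes in WT, where 63.5% of all genes tested did not overlap, and for 6 in DKO, where 39.9% did not. A call was an adjusted p under 0.05 in the edgeR test, adjusted over all genes tested. In whole-population RNA, fewer cells of a type and less RNA per cell cannot be told apart.

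**Figure D1:**
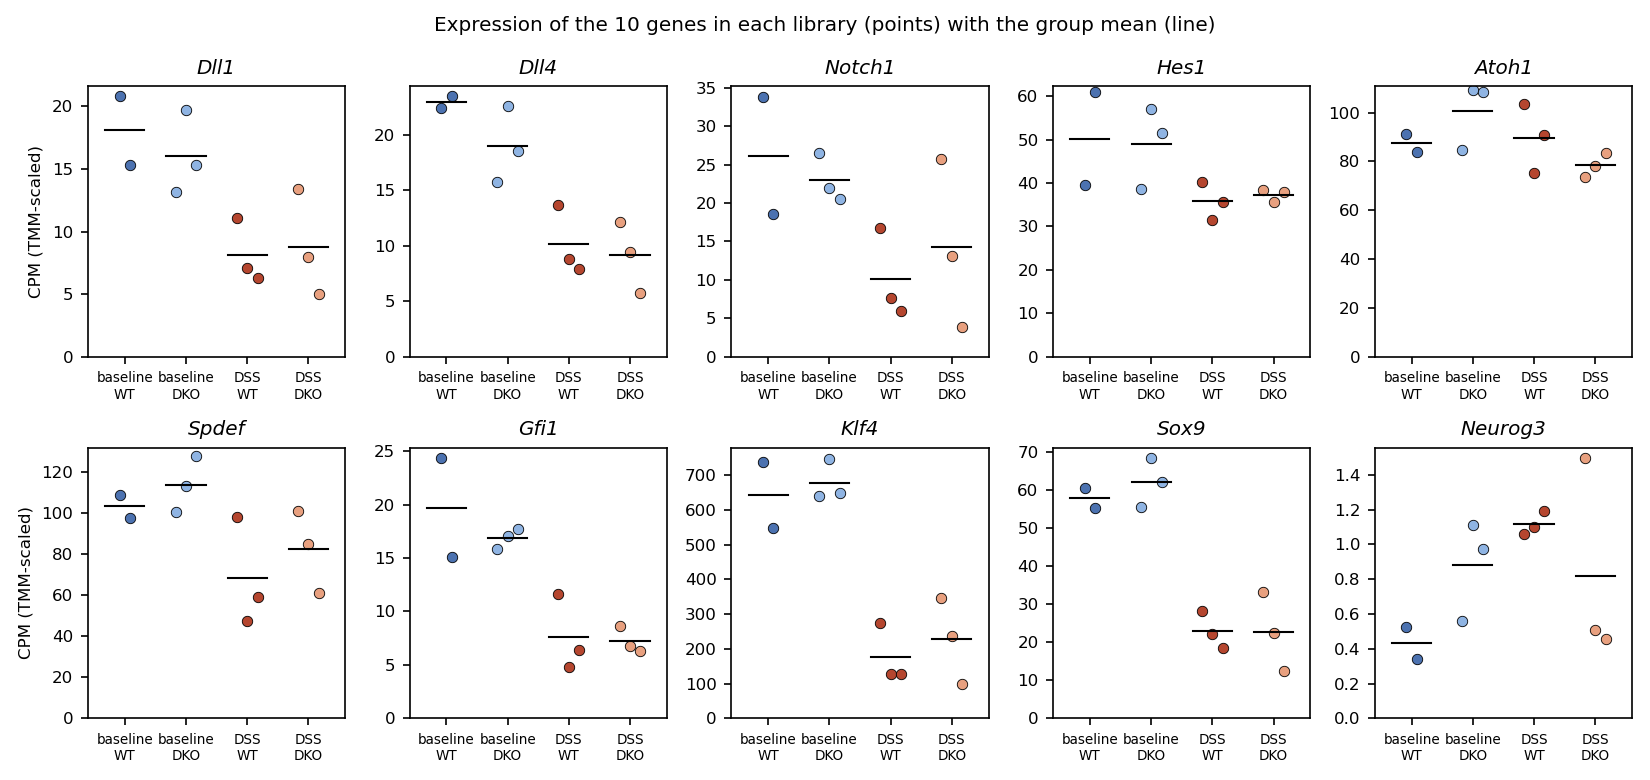
Each panel shows 1 gene, with TMM-scaled CPM on the vertical axis starting at 0 and the 4 groups along the horizontal axis; points are libraries and lines are group means. Sox9 and Klf4 stand lower in all 6 DSS libraries than in all 5 baseline libraries, and Atoh1 stays between 73.5 and 109 CPM throughout.

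Among the ligands, Dll1 (ENSMUSG00000014773.13, chr17:15367354-15376872, minus strand, GRCm38) and Dll4 (ENSMUSG00000027314.6, chr2:119325784-119335962, plus strand) are membrane proteins by which secretory precursors activate Notch in adjacent cells. Dll1 was at 20.8 and 15.3 CPM in the baseline WT libraries, 13.1, 19.7 and 15.3 in baseline DKO, 11.1, 7.10 and 6.26 in DSS WT and 13.4, 7.96 and 5.01 in DSS DKO. All 3 DSS WT libraries lay under both baseline WT libraries, whereas the highest DSS DKO library exceeded the lowest baseline DKO library. The log2 fold change of DSS over baseline for Dll1 was -1.15 ± 0.37 (SE, adjusted p = 0.0345) in WT and -0.87 ± 0.34 (SE, adjusted p = 0.0857) in DKO, so that this test called Dll1 in WT only; the difference between the genotypes, 0.28 with a 95% interval of -0.82 to 1.39, was not called. In DKO, DESeq2's Wald test did call Dll1, at -0.88 (adjusted p = 0.0370), as did edgeR with the replicate block (adjusted p = 0.0214), with no filter on low counts (0.000543) and without DSS DKO library 1 (0.00887). With the GC and length trend removed, Dll1 was called in neither genotype, at -0.64 ± 0.23 (SE, adjusted p = 0.0521) in WT and -0.55 ± 0.21 (SE, adjusted p = 0.0724) in DKO. Dll4 measured 22.4 and 23.5 CPM in baseline WT, 15.8, 22.6 and 18.5 in baseline DKO, 13.7, 8.82 and 7.91 in DSS WT and 12.2, 9.42 and 5.78 in DSS DKO. Its DSS libraries lay below the baseline libraries of the same genotype without overlap. Dll4 fell in both genotypes, with a log2 fold change of -1.18 ± 0.30 (SE, adjusted p = 0.0110) in WT and -1.05 ± 0.27 (SE, adjusted p = 0.0165) in DKO. Removing the trend brought Dll4 to -0.46 ± 0.16 (SE, adjusted p = 0.0446) in WT and -0.59 ± 0.15 (SE, adjusted p = 0.0101) in DKO, smaller and still called.

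The ligands followed the same course from library to library. Measured as the mean absolute difference of log2 CPM, each gene centred on its own mean over the 11 libraries, Dll4 was the nearest of 11208 genes to Dll1 and Dll1 the nearest to Dll4, at 0.114, where Dll1 itself spanned 2.05 and Dll4 2.01 log2 units. The next nearest genes were Fam222b (0.122) and Rbm38 (0.124) for Dll1, and P2ry6 (0.136) and Gramd4 (0.139) for Dll4. The difference between Dll1 and Dll4 was 0.185 once the GC and length trend had been removed. Dll4 then ranked 225 of 11001 genes by nearness to Dll1, and Dll1 ranked 252 by nearness to Dll4. This likeness is a description over 11 libraries that share depth and treatment, with no test.

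**Figure D2:**
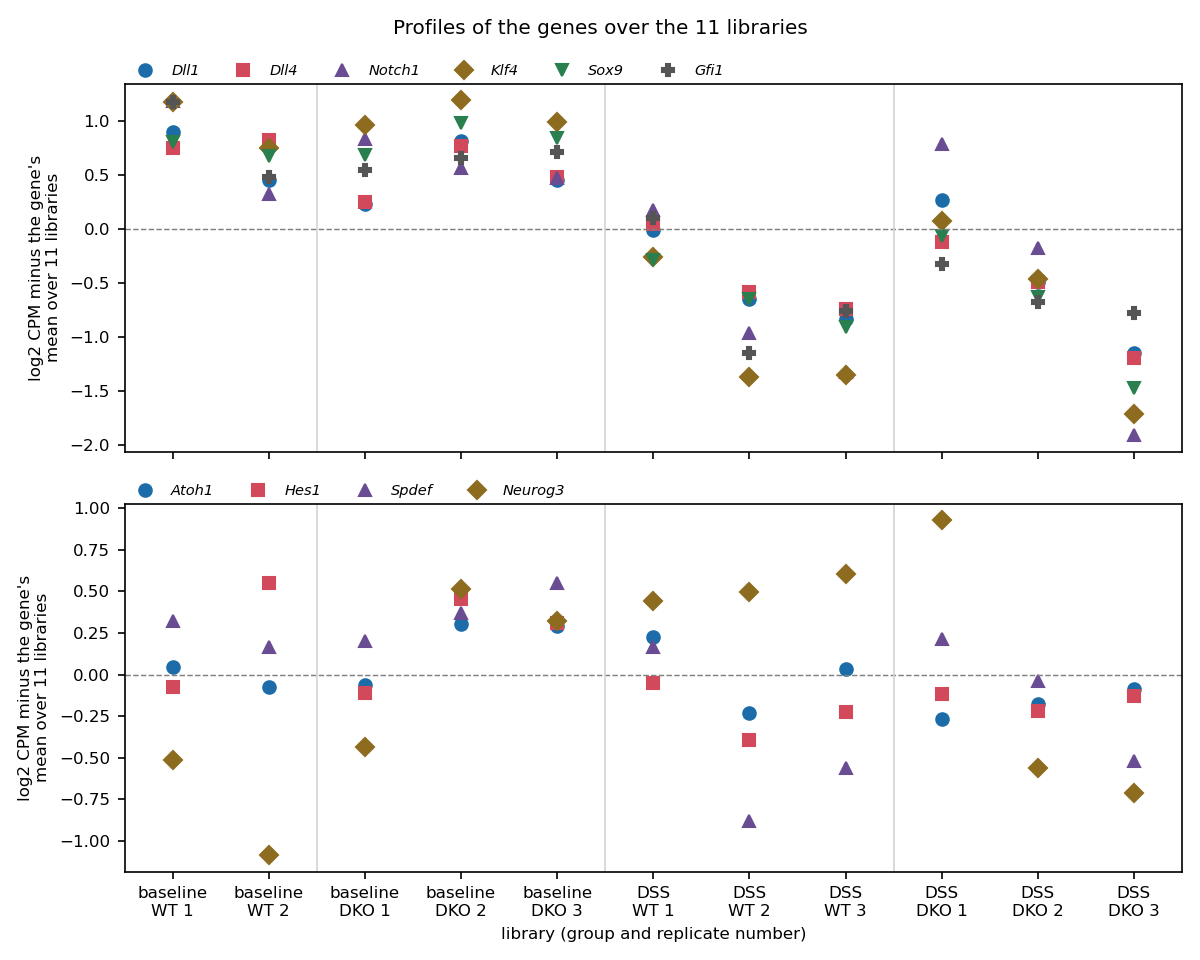
The vertical axis gives log2 CPM minus the gene's mean over the 11 libraries, and the horizontal axis the libraries by group and replicate number, an order that carries no meaning within a group. The upper panel shows Dll1, Dll4, Notch1, Klf4, Sox9 and Gfi1, with Dll1 and Dll4 close together in every library except baseline WT 1 and 2 and DSS DKO 1; the lower panel shows Atoh1, Hes1, Spdef and Neurog3.

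The promoters of Dll1 and Dll4 are shown next to each other. Windows from RefSeq (GRCm38.p6) from 250 bases before to 50 bases after the start site were searched on both strands for GTGGGAA (the RBPJ motif), CACGNG and CACNAG (bound by Hes proteins; CACGAG would match both), and the E-boxes CAGCTG and CATCTG. Matches are in capitals, for Dll1 at chr17:15376883-15377182 (minus strand) and Dll4 at chr2:119325534-119325833 (plus strand).
Dll1 promoter: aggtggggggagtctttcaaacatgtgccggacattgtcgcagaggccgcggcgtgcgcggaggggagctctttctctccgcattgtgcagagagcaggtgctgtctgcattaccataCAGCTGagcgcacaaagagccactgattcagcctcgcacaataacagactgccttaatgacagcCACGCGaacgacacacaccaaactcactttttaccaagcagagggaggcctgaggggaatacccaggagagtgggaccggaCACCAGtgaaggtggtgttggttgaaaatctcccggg
Dll4 promoter: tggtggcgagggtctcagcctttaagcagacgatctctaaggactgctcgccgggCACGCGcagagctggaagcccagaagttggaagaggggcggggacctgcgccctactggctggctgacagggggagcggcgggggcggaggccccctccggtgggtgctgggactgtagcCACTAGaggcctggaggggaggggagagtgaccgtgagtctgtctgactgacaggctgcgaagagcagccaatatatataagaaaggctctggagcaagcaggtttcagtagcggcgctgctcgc
Dll1 held CAGCTG at -132, CACGNG at -68 and CACNAG at +14 relative to the start site, and Dll4 held CACGNG at -195 and CACNAG at -75. RefSeq gives Dll1 another start site, whose window (chr17:15375774-15376073) held CACGNG at -105 and none of the other motifs. Of all 32851 RefSeq promoters, 27.5% held CACGNG, 42.5% CACNAG, 16.3% CAGCTG, 17.2% CATCTG and 6.38% GTGGGAA. The RBPJ motif was in 0 windows of the 8 genes that were matched, which says only that these letters are not in them.

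Notch1 (ENSMUSG00000026923.15, chr2:26457903-26516663, minus strand) encodes the receptor itself. Its level was 33.7 and 18.6 CPM in baseline WT, 26.5, 22.0 and 20.6 in baseline DKO, 16.8, 7.59 and 5.91 in DSS WT and 25.7, 13.1 and 3.92 in DSS DKO. Libraries of 1 group were far apart after DSS, with DSS DKO library 1 among the baseline values and library 3 the lowest of all 11. The WT groups did not overlap, yet the fold change was not called, at -1.37 ± 0.66 (SE, adjusted p = 0.138), and in DKO it was -0.69 ± 0.60 (SE, adjusted p = 0.433). Without DSS WT library 1 the WT value was -1.97 and was called (adjusted p = 0.0352), and without DSS DKO library 3, which enters only the shared estimate of the spread, it was -1.37 and was called (adjusted p = 0.0201). The libraries lowest in Notch1, DSS WT 2 and 3 and DSS DKO 3, were also those lowest in long genes of high GC content. Notch1 has a transcript of 9488 bases and a GC content of 57.1%. The part of this trend in the Notch1 values was not tested. With that trend removed, the direction turned, to 0.21 ± 0.24 (SE, adjusted p = 0.542) in WT and 0.15 ± 0.22 (SE, adjusted p = 0.651) in DKO.

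Dll4 and Notch1 are also made by blood vessels, and the summed level of endothelial markers was lower after DSS, in large part through 1 marker. The 13 endothelial markers summed to 12.1 to 17.3 CPM in the baseline libraries and 5.53 to 8.02 CPM in the DSS libraries, with Emcn, Cldn5 or Flt1 at 0 in 5 of the 11 libraries. In WT, 1 of 11 tested endothelial markers was called lower after DSS, where 16.5% of all genes tested were. In DKO, 3 of 11 were called lower, where 11% of all genes were. The marker called in both was Vwf, the clotting factor stored by endothelial cells, which measured 7.46 ± 0.418 CPM in baseline WT (SD, n = 2) against 1.30 ± 0.0796 in DSS WT (SD, n = 3). The adhesion protein Pecam1 was not called, at -0.24 in WT and -0.66 in DKO, and Kdr and Erg had positive log2 fold changes in WT, of 0.54 and 0.65, that were not called. These markers were picked after their values were seen. Their part in the Dll4 and Notch1 values was not tested.

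Hes1 (ENSMUSG00000022528.8, chr16:30064384-30067796, plus strand) is the repressor that Notch switches on and that silences Atoh1. It measured 39.5 and 60.9 CPM in baseline WT, 38.5, 57.0 and 51.6 in baseline DKO, 40.2, 31.6 and 35.6 in DSS WT and 38.4, 35.6 and 38.0 in DSS DKO. The baseline libraries were spread widely, and the highest DSS WT library lay just above the lower baseline WT library. The log2 fold change after DSS was -0.49 ± 0.20 (SE, adjusted p = 0.0744) in WT and -0.39 ± 0.18 (SE, adjusted p = 0.127) in DKO, neither of them called. Removing the GC and length trend left Hes1 called lower in WT, at -0.68 ± 0.18 (SE, adjusted p = 0.0126), and not in DKO, at -0.42 ± 0.16 (SE, adjusted p = 0.0751). Without baseline WT library 1, which had the lower Hes1 level of the pair, the WT value was -0.77 (adjusted p = 0.0339).

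Atoh1 (ENSMUSG00000073043.5, chr6:64729125-64731245, plus strand) is the master factor of the secretory lineage. Its level was 91.3 and 83.9 CPM in baseline WT, 84.6, 109 and 108 in baseline DKO, 103, 75.2 and 90.6 in DSS WT and 73.5, 78.2 and 83.3 in DSS DKO. In WT the groups overlapped, with a log2 fold change of 0.03 ± 0.15 (SE) and a 95% interval of -0.30 to 0.37, the narrowest of the 10 genes. In DKO all 3 DSS libraries lay just under all 3 baseline libraries, at -0.36 ± 0.14 (SE, adjusted p = 0.0741), which was not called. Without baseline DKO library 1, one of the libraries rich in ribosomal RNA, the DKO value was -0.47 and was called (adjusted p = 0.0415). The response to DSS differed between the genotypes by -0.40 ± 0.21 (SE, adjusted p = 0.327), which was not called. Removing the trend put Atoh1 at 0.04 in WT and -0.26 in DKO.

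Several goblet cell products were lower after DSS while Atoh1 was not called. The 10 goblet markers summed to 35673 to 41857 CPM in the baseline libraries, 7205 to 8728 CPM in DSS WT and 4606 to 4986 CPM in DSS DKO. After DSS, 5 of 10 were called lower in WT and 8 of 10 in DKO. Of all genes tested, 16.5% were called lower in WT and 11% in DKO. The goblet marker values are given without the GC and length trend removed. Muc2, the main mucin of colonic mucus, had a log2 fold change of -2.91 ± 0.22 (SE, adjusted p = 3.06e-05) in WT and -2.57 ± 0.21 (SE, adjusted p = 1.80e-05) in DKO. Muc2, Clca1 and Fcgbp made up most of the summed level at baseline, and the other markers varied: Agr2, a chaperone of mucin folding, was not called in either genotype, at 0.47 in WT and -0.51 in DKO, nor was the hormone precursor Guca2a, at -0.50 and 0.30, and Spink4 was not called in WT, at -0.18. Muc2, Agr2, Guca2a and Spink4 were picked after their values were seen. Atoh1 is thought to be held down by Hes proteins, and its RefSeq promoter (chr6:64728875-64729174, plus strand) is shown for its matches to the motif they bind.
Atoh1 promoter: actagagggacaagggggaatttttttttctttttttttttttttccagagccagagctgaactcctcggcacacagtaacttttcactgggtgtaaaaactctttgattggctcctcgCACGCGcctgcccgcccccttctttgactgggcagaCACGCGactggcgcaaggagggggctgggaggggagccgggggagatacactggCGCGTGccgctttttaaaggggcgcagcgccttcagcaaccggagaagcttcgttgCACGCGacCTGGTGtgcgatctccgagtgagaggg
The window held CACGNG at -131, -95, -41 and +16 and CACNAG at +24. At least 4 matches to CACGNG occurred in 130 of the 32851 promoters (0.396%). The cut of 4 was set at the number found in Atoh1 itself, so this share is no test of that promoter.

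Spdef (ENSMUSG00000024215.14, chr17:27714352-27728955, minus strand) promotes maturation of goblet cells downstream of Atoh1. It measured 109 and 97.9 CPM in baseline WT, 101, 113 and 128 in baseline DKO, 98.1, 47.4 and 59.2 in DSS WT and 101, 84.9 and 61.0 in DSS DKO. In each genotype library 1 of the DSS group reached the baseline range and the other two lay under it. The changes of -0.60 ± 0.28 (SE, adjusted p = 0.122) in WT and -0.47 ± 0.25 (SE, adjusted p = 0.205) in DKO were not called. Without DSS WT library 1 the WT value was -0.97 and was called (adjusted p = 0.00644). After removal of the GC and length trend it was -0.04 in WT and -0.02 in DKO.

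Gfi1 (ENSMUSG00000029275.18, chr5:107716657-107726036, minus strand) acts in secretory precursors and favours goblet over enteroendocrine fate. Its level was 24.4 and 15.1 CPM in baseline WT, 15.8, 17.0 and 17.7 in baseline DKO, 11.6, 4.85 and 6.37 in DSS WT and 8.62, 6.72 and 6.26 in DSS DKO, and every DSS library lay under every baseline library. Gfi1 fell in both genotypes, with a log2 fold change of -1.37 ± 0.32 (SE, adjusted p = 0.00751) in WT and -1.23 ± 0.29 (SE, adjusted p = 0.0118) in DKO. With the GC and length trend removed the fall was smaller and still called, at -0.65 ± 0.20 (SE, adjusted p = 0.0272) in WT and -0.65 ± 0.19 (SE, adjusted p = 0.0205) in DKO. The nearest of 11208 genes to Gfi1 by the same measure of likeness were Mcf2l (0.153), Wdr90 (0.168) and Pigo (0.172), on a span of 2.32 log2 units. This likeness was not measured with the GC and length trend removed, here or for Klf4 and Sox9. Gfi1 is also expressed in granulocyte precursors. The 14 neutrophil markers summed to 58.0 to 89.9 CPM in the baseline and DSS WT libraries and 188 to 270 CPM in DSS DKO, all 14 being detected in every library, and their part in the Gfi1 value was not tested.

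Klf4 (ENSMUSG00000003032.8, chr4:55527143-55532466, minus strand) is a factor of goblet cells and of differentiated surface cells, and had the highest level of the 10. Its level was 738 and 549 CPM in baseline WT, 639, 748 and 649 in baseline DKO, 274, 126 and 128 in DSS WT and 345, 238 and 99.8 in DSS DKO. The lowest baseline library was well above the highest DSS library. The log2 fold change of -1.87 ± 0.48 (SE, adjusted p = 0.0160) in WT was the largest fall of the 10 genes there, as was that of -1.58 ± 0.44 (SE, adjusted p = 0.0301) in DKO. After removal of the trend it was -1.53 in WT and -1.34 in DKO, called in both. With the GC and length trend left in, the genes nearest to Klf4 over the 11 libraries were Mark2 (0.0650), Bahd1 (0.0916) and Espn (0.102). Mark2 was thereby closer to Klf4 than Dll4 was to Dll1.

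Sox9 (ENSMUSG00000000567.5, chr11:112782224-112787760, plus strand) marks crypt base progenitors and is needed for some secretory cells. Sox9 reached 60.6 and 55.3 CPM in baseline WT, 55.6, 68.4 and 62.2 in baseline DKO, 28.3, 22.1 and 18.4 in DSS WT and 33.2, 22.4 and 12.4 in DSS DKO. All 6 DSS libraries lay under all 5 baseline libraries. Sox9 fell in both genotypes, with a log2 fold change of -1.34 ± 0.32 (SE, adjusted p = 0.0101) in WT and -1.45 ± 0.29 (SE, adjusted p = 0.00638) in DKO. It had a GC content of 49.3%, in the middle quintile of genes, and was hardly moved by removing the trend, at -1.38 ± 0.31 (SE, adjusted p = 0.00788) in WT and -1.46 ± 0.29 (SE, adjusted p = 0.00439) in DKO. Enteric glia also express Sox9, and the 4 glial markers summed to 1.36 to 2.49 CPM in the 5 baseline libraries and 0.333 to 1.26 CPM in the 6 DSS libraries, without overlap, with Sox10 at 0 in 9 of the 11. Their part in the Sox9 value was not tested. With the GC and length trend left in, the genes nearest to Sox9 were Msl1 (0.118), Ppp1r12c (0.133) and Zfp444 (0.134), on a span of 2.45 log2 units.

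Neurog3 (ENSMUSG00000044312.4, chr10:62133090-62134763, plus strand) starts the enteroendocrine programme and is expressed briefly in few cells. With 16 to 81 counts per library it was the most weakly measured of the 10. Its level was 0.525 and 0.340 CPM in baseline WT, 0.557, 1.11 and 0.971 in baseline DKO, 1.06, 1.10 and 1.19 in DSS WT and 1.50, 0.506 and 0.454 in DSS DKO. Both baseline WT libraries lay under every library of baseline DKO and of DSS WT, and DSS DKO library 1 was the highest of all while its libraries 2 and 3 were near the baseline WT values. The log2 fold change of DSS over baseline was 1.36 ± 0.54 (SE, adjusted p = 0.0693) in WT and -0.10 ± 0.45 (SE, adjusted p = 0.888) in DKO, neither called. In WT it was called higher by DESeq2's Wald test, at 1.35 (adjusted p = 0.0499), and by edgeR with only the 2 groups fitted (adjusted p = 0.0225), with no filter on low counts (0.0267) and without DSS DKO library 1 (0.0184) or library 3 (0.0460), which enter only the shared estimate of the spread. With the GC and length trend removed the WT value was 1.46 ± 0.51 (SE, adjusted p = 0.0445) and was called. The response differed between the genotypes by -1.46 ± 0.70 (SE, adjusted p = 0.284), which was not called, and by -2.24 (adjusted p = 0.0316) without DSS DKO library 1. An exon of Neurog3 overlaps one of Fam241b on the other strand, which was at 14.1 to 21.2 CPM. Since the strand setting of the counts is not given in the sources used here, reads of these genes cannot be told apart. The same holds for Dll4 and Gm14207, at 2.08 to 4.55 CPM, and for Notch1 and Gfi1, whose partners on the other strand reached at most 0.628 CPM. The partner of Dll1, A930024N18Rik, was not analysed here.

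The trend along GC content and length touched these genes unequally. In WT the median log2 fold change of DSS over baseline was 0.47 in the quintile of genes lowest in GC and -0.72 in the highest quintile, and -1.32 among the longer genes of the latter. In DKO these medians were 0.32, -0.45 and -0.83. Of the 10 genes, Spdef, Dll4, Notch1, Gfi1 and Neurog3 were in the highest quintile, Dll1, Klf4 and Atoh1 in the fourth, and Hes1 and Sox9 in the third. With the trend removed, 6 of the 10 genes were called in WT, where 30.4% of the 18660 genes tested were called: Hes1, Dll4, Gfi1, Sox9 and Klf4 were lower and Neurog3 was higher. In DKO, where 25.9% were called, the same 4 of the 10 genes were called as before. The part of this trend in the results was not tested.

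**Figure D3:**
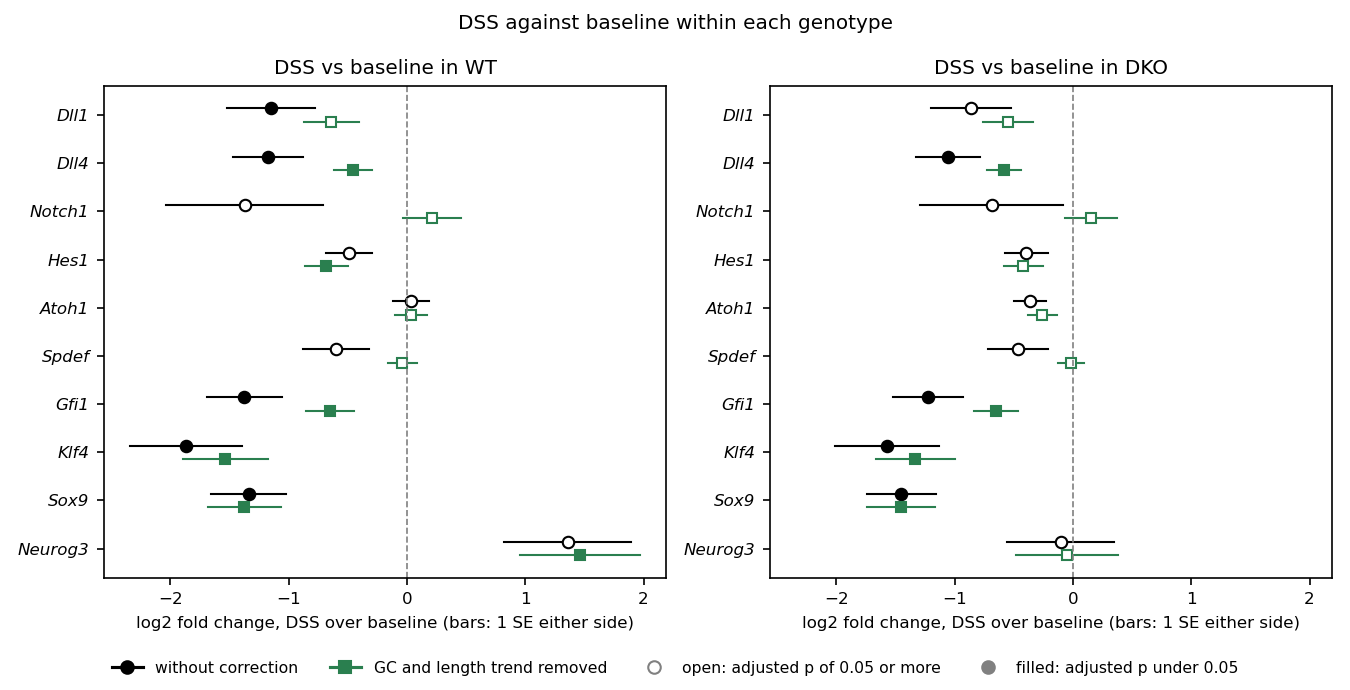
Log2 fold changes of DSS over baseline are on the horizontal axis for the 10 genes, in WT on the left and DKO on the right, without correction (circles) and with the GC and length trend removed (squares); bars are 1 SE either side, and filled symbols have an adjusted p under 0.05. Sox9 and Klf4 lie between -1.34 and -1.87 throughout, Dll1, Dll4 and Gfi1 move toward 0, and Notch1 crosses it.

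The calls in WT leaned on single libraries of small groups. Without baseline WT library 1, Dll1 (-0.91, adjusted p = 0.214), Dll4 (-1.21, 0.0583), Gfi1 (-0.99, 0.102), Sox9 (-1.27, 0.0716) and Klf4 (-1.64, 0.105) kept their direction and lost the call, with the single remaining library assumed to vary like the other groups. Without baseline WT library 2, Dll1 (0.0654) and Dll4 (0.0590) lost it, and Dll1 and Klf4 lost it without DSS WT library 2 (adjusted p = 0.0983 and 0.0538) or library 3 (0.104 and 0.0518). In DKO, Klf4 lost its call without any of the 3 baseline libraries or without DSS library 2 (adjusted p of 0.0540, 0.0846, 0.0556 and 0.0750), and Dll4 without baseline library 2 (0.0714) or DSS library 2 (0.0511). With both baseline DKO libraries rich in ribosomal RNA left out, a setting chosen after seeing the data, 0 of the 10 genes were called in DKO and Sox9 had the lowest adjusted p, 0.0876, at -1.47. Without DSS DKO library 1, Dll1 was called in DKO as well, at -1.31 (adjusted p = 0.00887).

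Levels per kilobase of annotated exon, on which genes can be compared, gave nearly the same order in every group. In baseline WT, Klf4 was at 211 ± 43.8 CPM per kb (SD, n = 2), followed by Spdef at 44.9 ± 3.44, Atoh1 at 41.3 ± 2.44, Hes1 at 24.6 ± 7.41 and Sox9 at 14.0 ± 0.910. Gfi1 (6.19 ± 2.07), Dll4 (5.95 ± 0.204) and Dll1 (4.29 ± 0.921) lay close together, above Notch1 (1.84 ± 0.751) and Neurog3 (0.259 ± 0.0782). Spdef and Atoh1 did not differ beyond their spread, nor did Gfi1 and Dll4. In DSS WT, Klf4 was at 57.8 ± 27.7 CPM per kb (SD, n = 3), Atoh1 at 42.3 ± 6.64, Spdef at 29.6 ± 11.5, Hes1 at 17.6 ± 2.11 and Sox9 at 5.55 ± 1.20, so that Klf4 and Atoh1, which were far apart at baseline, were within their spread of each other. In DSS DKO, Klf4 was at 74.7 ± 40.4, Atoh1 at 36.9 ± 2.33 and Spdef at 35.8 ± 8.80.

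The comparison of DKO with WT asked whether loss of the microRNA clusters altered these genes. After DSS, 0 of the 10 were called, where 11.2% of all genes tested were called, 0 had an unadjusted p under 0.05 against 5148 of all genes, and DESeq2's Wald test also called 0. At baseline 0 were called, where 0.026% of all genes were called, 0 had an unadjusted p under 0.05 against 751 of all genes, and DESeq2 again called 0. The median log2 fold change of the 10 was 0.02 both after DSS and at baseline, beside 0.03 and 0.01 for all genes. Groups overlapped for all 10 genes after DSS, where those of 31.8% of all genes tested did not, and for all but Neurog3 at baseline, where those of 20.2% did not.

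The intervals set how large a difference could have gone unseen. After DSS, the 95% interval of the log2 fold change was -0.49 to 0.10 for Atoh1, -0.32 to 0.45 for Hes1 and -0.29 to 0.84 for Spdef. For Sox9 it was -0.66 to 0.62, for Gfi1 -0.71 to 0.56, for Dll4 -0.74 to 0.44 and for Dll1 -0.63 to 0.85. The widest belonged to Klf4 (-0.60 to 1.34), Neurog3 (-1.41 to 0.54) and Notch1 (-0.86 to 1.86), so that a log2 change of 1 in either direction lay outside the interval for the first 7 genes and, in 1 direction or both, inside it for these 3. At baseline, Atoh1 had -0.13 to 0.53 and Hes1 -0.46 to 0.40, whereas Neurog3, at 1.03 ± 0.54 (SE), reached from -0.14 to 2.20. With the GC and length trend removed, Dll4 had the lowest adjusted p of the 10 after DSS, at -0.44 ± 0.15 (SE, adjusted p = 0.0593), and was not called.

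**Figure D4:**
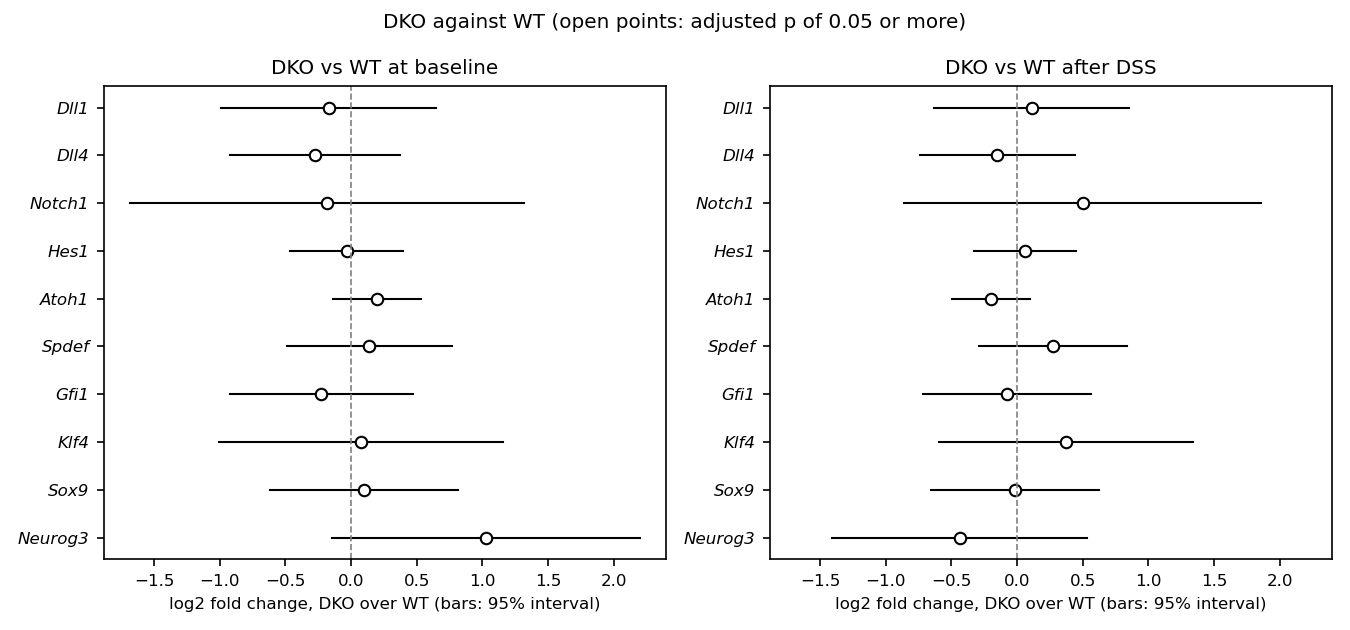
Log2 fold changes of DKO over WT are on the horizontal axis for the 10 genes, at baseline on the left and after DSS on the right; bars are 95% intervals and open points have an adjusted p of 0.05 or more. Every interval crosses 0, with those of Atoh1 and Hes1 narrowest and those of Notch1 widest.

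The interaction of genotype and DSS, which asks whether the 2 genotypes responded differently, called 0 of the 10 genes, where 1.57% of all genes were called, 302 in number. None of the 10 had an unadjusted p under 0.05, against 3636 of all genes, and DESeq2 called 0 of them. The lowest p values were those of Neurog3 (0.0578 unadjusted) and Atoh1 (0.0781), described above. Among the other genes of the lists below, Foxa3, a goblet cell factor that works with Spdef, was called: it rose after DSS in WT, at 0.49 ± 0.13 (SE, adjusted p = 0.0149), fell in DKO, at -0.64 ± 0.12 (SE, adjusted p = 0.00285), and the difference was -1.13 ± 0.18 (SE, adjusted p = 0.0150). DESeq2's Wald test called 6 genes of the pathway lists in the interaction, where edgeR called 1. Foxa3 was at 43.8 ± 0.347 CPM (SD, n = 2) in the WT baseline group and 56.0 ± 3.22 (SD, n = 3) in the DKO one, and after DSS at 61.6 ± 3.35 in WT and 35.9 ± 5.17 in DKO (SD, n = 3 each).

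The rest of the pathway after DSS was read from lists of textbook genes. Of all genes tested, 33.4% were called in WT and 23.6% in DKO. Of 6 tested ligands, which include Dll1 and Dll4, 3 were lower in WT and 2 in DKO, Dll3 at -3.55 ± 1.24 (SE, adjusted p = 0.0444) in WT and the noncanonical Dlk1 at -2.05 ± 0.60 (SE, adjusted p = 0.0277) in DKO being the others. Dll3 was near the floor, with 13 and 11 counts in baseline WT and 0, 3 and 0 in DSS WT. Dlk1 was uneven, at 0.836, 0.654 and 2.66 CPM in baseline DKO and 0.518, 0.365 and 0.113 in DSS DKO. DESeq2's Wald test called 2 ligands in WT and 3 in DKO. Of 4 receptors, Notch3 (-1.51 ± 0.52 (SE, adjusted p = 0.0418)) and Notch4 (-2.19 ± 0.46 (SE, adjusted p = 0.00513)) were lower in WT, and Notch4 (-2.04 ± 0.43 (SE, adjusted p = 0.00658)) was lower in DKO. Of 28 genes that modify, traffic or cleave ligands and receptors, 5 were higher and 8 lower in WT and 2 higher and 6 lower in DKO. Both proteases that make the first cut in the activated receptor rose: Adam10 by 0.90 ± 0.12 (SE, adjusted p = 0.000396) in WT and 0.48 ± 0.10 (SE, adjusted p = 0.00622) in DKO, and Adam17 by 0.81 ± 0.11 (SE, adjusted p = 0.000430) and 0.31 ± 0.09 (SE, adjusted p = 0.0322). Neurl1a and Neurl1b, ubiquitin ligases of ligands, fell, Neurl1b at -2.59 ± 0.43 (SE, adjusted p = 0.00246) in WT and -2.33 ± 0.41 (SE, adjusted p = 0.00376) in DKO. Nicastrin (Ncstn), a subunit of the gamma-secretase that makes the final cut, fell in WT, at -0.85 ± 0.12 (SE, adjusted p = 0.000531). With the GC and length trend removed, Dll3, Notch3 and Notch4 lost their calls, at -2.21, 0.47 and -0.03 in WT, and Notch4 was at -0.26 in DKO. Neurl1a was then called in neither genotype (-0.43 and -1.40), and Adam10 (0.22) and Adam17 (0.15) were no longer called in DKO. The list medians were -1.14 and -0.96 for ligands, -1.44 and -0.60 for receptors and -0.34 and -0.24 for processing genes in WT and DKO, with the medians of all genes given above. With the trend removed, the list medians were -0.22 and -0.57 for ligands, 0.31 and 0.34 for receptors and -0.004 and -0.08 for processing genes. Jag2 was then called higher in both genotypes, and Notch2 was called higher in DKO.

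In the nucleus, 3 of 16 genes of the RBPJ complex and its corepressors were higher and 5 lower in WT, and 2 were higher and 1 lower in DKO, with medians of -0.41 and -0.26. With the GC and length trend removed these medians were -0.23 and 0.03. The corepressor enzymes Hdac1 (1.08 ± 0.14 (SE, adjusted p = 0.000396) in WT) and Kdm5a (0.81 ± 0.16 (SE, adjusted p = 0.00504) in DKO) rose, and in WT the coactivators Maml1 (-1.98 ± 0.48 (SE, adjusted p = 0.0126)) and Maml3 (-1.14 ± 0.24 (SE, adjusted p = 0.00420)) fell. The list of Notch targets was made of Hes and Hey family genes, Nrarp and Olfm4, and whether Notch induces each of them here was not tested. Of its 8 tested genes, 0 were called in WT. In DKO 2 were lower, Hes6 at -0.79 ± 0.18 (SE, adjusted p = 0.00831) and Hes2 at -0.95 ± 0.23 (SE, adjusted p = 0.0131). The medians were -0.44 in both genotypes, and -0.11 in WT and -0.35 in DKO with the GC and length trend removed. In WT, 3 of the 8 had an unadjusted p under 0.05 in edgeR, Hes1 among them, and DESeq2's Wald test called 2.

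Among fate factors, the secretory and goblet list, which holds Atoh1, Spdef, Gfi1, Klf4 and Sox9, had 1 of 14 genes higher and 6 lower in WT and 0 higher and 6 lower in DKO, with medians of -1.19 and -0.96. Creb3l1, a membrane-bound factor of secretory cells, fell in both, at -2.16 ± 0.46 (SE, adjusted p = 0.00757) and -2.37 ± 0.44 (SE, adjusted p = 0.00515). The enteroendocrine list, which holds Neurog3, had 4 of 17 higher and 3 lower in WT and 4 higher and 1 lower in DKO, with medians of 0.21 and 0.40. With the GC and length trend removed, only 1 of these 7 calls in WT was kept, and all 5 were kept in DKO. Counting Neurog3, 2 genes were then higher and 0 lower in WT, and the medians were -0.01 and 0.29. Neurod1, which acts after Neurog3, rose in both genotypes, at 0.85 ± 0.23 (SE, adjusted p = 0.0162) and 1.11 ± 0.21 (SE, adjusted p = 0.00313), and with the GC and length trend removed was called in DKO and not in WT, at 0.51 (adjusted p = 0.0976). Of 8 tuft cell genes, a list that shares Sox9, 7 were lower in WT and 6 in DKO, with medians of -1.66 and -2.08. The tuft master factor Pou2f3 had -1.65 ± 0.45 (SE, adjusted p = 0.0158) and -3.77 ± 0.49 (SE, adjusted p = 0.000419). Pou2f3 was near the floor in DSS DKO, at 0.167 ± 0.160 CPM (SD, n = 3). Of 17 absorptive factors, 1 was higher and 10 lower in WT and 1 higher and 6 lower in DKO, with medians of -0.93 and -0.68, led in both by Tcf7l2 (-1.58 ± 0.21 (SE, adjusted p = 0.000434) and -1.63 ± 0.20 (SE, adjusted p = 0.000267)), a factor that also carries Wnt signals in progenitors. With the trend removed, the medians were -0.64 and -0.73 for the secretory and goblet list and -1.67 and -1.88 for the tuft list. For the absorptive list they were -0.74 and -0.51. No test was made of the lists themselves, and genes on them with 11 counts or fewer in every library were not tested.

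**Figure D5:**
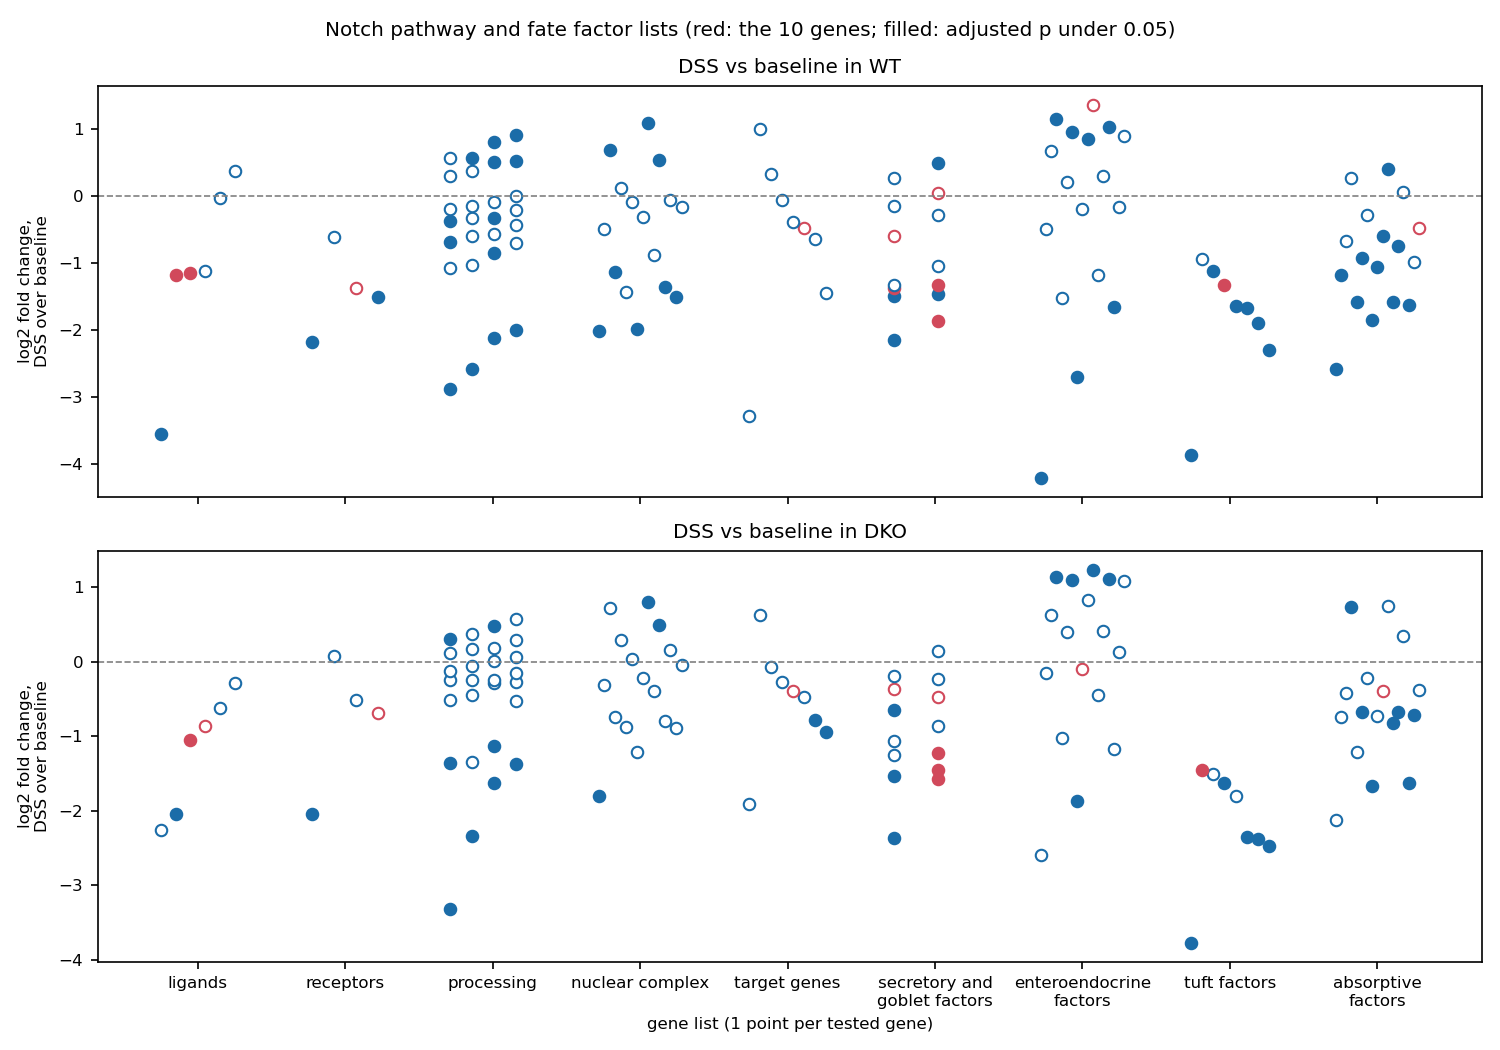
Each point is 1 tested gene of a list, with the log2 fold change of DSS over baseline on the vertical axis, in WT above and DKO below; red points are the 10 genes and filled points have an adjusted p under 0.05. Tuft genes lie below 0 in both genotypes, and the enteroendocrine list is spread to both sides.

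Between the genotypes after DSS, 9 genes of these lists were called, where 11.2% of all genes tested were called. The processing list had 1 higher, Ncstn at 0.50 ± 0.11 (SE, adjusted p = 0.0126), and 3 lower, Adam17 at -0.48 ± 0.09 (SE, adjusted p = 0.00847), Dtx3l at -0.67 ± 0.14 (SE, adjusted p = 0.0111) and Adam10 at -0.39 ± 0.10 (SE, adjusted p = 0.0308). With the trend removed, Adam10 was at -0.20 and not called. Foxa3 (-0.78 ± 0.12 (SE, adjusted p = 0.00234)) was lower among the secretory and goblet factors, Rfx3 (-0.76 ± 0.16 (SE, adjusted p = 0.0127)) among the enteroendocrine factors, and Pou2f3 (-2.11 ± 0.49 (SE, adjusted p = 0.0181)) and Dclk1 (-0.97 ± 0.26 (SE, adjusted p = 0.0308)) among the tuft genes. Pou2f3 was near the floor in DSS DKO, as given above. Maf (1.02 ± 0.30 (SE, adjusted p = 0.0478)) was higher among the absorptive factors. At baseline 0 genes of any of the lists were called by edgeR, 1 had an unadjusted p under 0.05, and DESeq2's Wald test called 0.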

How the data were processed

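RNA from Percoll-purified mouse colonic epithelial cells was made into libraries after selection on oligo(dT) beads, per the labels' protocols. STAR and the build mm10 are named in the submitters' processing notes; its version, the read counter, the annotation and the strandedness are not given in the sources. The values deposited by the authors are raw counts per gene, 1 column per library, matched to samples by name. Groups follow the labelled genotype and treatment.

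Tests were run with edgeR 4.0.16 in R 4.3.3: filterByExpr at a minimum count of 10, TMM scaling, and a robust quasi-likelihood fit of 1 mean per group to all 11 libraries. The common biological coefficient of variation was 0.234. Each contrast used the two-sided F-test with Benjamini-Hochberg adjustment over 19267 genes, which held at least 99.9% of each library's counts. The SE is the absolute log2 fold change over the root of F, and 95% intervals use the t quantile at the test's degrees of freedom. Alternatives included DESeq2 1.42.0, other filters, a replicate block, each library left out in turn, and a GC and length correction fitted with mgcv 1.9.3 to the 18660 tested genes (96.8%) with an annotated coding transcript. The steps were tested on simulated data. No pair of libraries within a group agreed within sampling noise (chi-square per degree of freedom of 15.9 to 897).

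Positions and 3' UTRs come from GENCODE M21 on GRCm38, the build mm10, by symbol (50671 of 54513 genes, 93.0%); promoters of 8 of the 10 genes and the miRNAs come from RefSeq. The authors' annotation may differ. Named genes are the 10, up to 4 called genes per list with the lowest adjusted p in a comparison, and the 3 nearest genes of each called gene; Notch2, Jag1, Rbpj and the goblet and endothelial markers were chosen after their values were seen. Genes and lists were chosen with earlier results of these data known.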

Additional observations from a re-analysis of the deposited data

Results flagged for a closer look

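Among the pathway genes and the goblet and enteroendocrine markers, 4 responded to DSS differently in the 2 genotypes by the interaction test of edgeR, none of them among the 10 genes of the report. Foxa3, the goblet factor, had an interaction of -1.13 ± 0.18 (SE, adjusted p = 0.0150) on the log2 scale. Clca1, a goblet cell secretory protein, fell after DSS in both genotypes, at -2.74 ± 0.18 (SE, adjusted p = 6.59e-06) in WT and -6.09 ± 0.20 (SE, adjusted p = 4.91e-09) in DKO, with an interaction of -3.35 ± 0.25 (SE, adjusted p = 0.000253). Chga, the granule protein of enteroendocrine cells, was lower after DSS in WT (-0.88 ± 0.23 (SE, adjusted p = 0.0125)) and higher in DKO (0.77 ± 0.21 (SE, adjusted p = 0.0205)), with an interaction of 1.65 ± 0.31 (SE, adjusted p = 0.0268). Insl5, a hormone of colonic enteroendocrine cells, was at 0.65 ± 0.25 (SE, adjusted p = 0.0617) in WT and -1.05 ± 0.22 (SE, adjusted p = 0.00602) in DKO, with an interaction of -1.70 ± 0.33 (SE, adjusted p = 0.0297). The sex difference between baseline and DSS libraries applies to these values too. The number of interaction calls over all genes shifted widely when 1 library was left out, as given below. Whether these 4 genes kept their calls is not given here.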

How the results depend on the processing

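Of 1040 values of the 10 genes under the alternatives, 930 kept direction and call, 24 gained the call, 25 lost it, 61 uncalled values changed sign, and 0 called values reversed. Of the 61, 7 had an absolute log2 fold change over 0.5 beforehand, all of them of Notch1, 6 under the GC and length correction with or without the block and 1 without DSS DKO library 1. Replicate numbers were not taken as pairs: deviations of same-numbered libraries correlated at a mean of 0.046 (-0.07 to 0.30) and of others at -0.02. Between DSS WT and DSS DKO they correlated at 0.30, 0.02 and 0.20, against -0.30 to 0.16 for other numbers, and DSS WT library 2 correlated best with DSS DKO library 3. With the replicate block, 5 of the 10 genes were called in WT after DSS and 5 in DKO, Dll1 being added (-0.99, adjusted p = 0.0214), and 3 of all genes at baseline against 5. With the block and the GC and length correction together, 5 were called in each, 3 of all genes at baseline and 989 in the interaction.

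The number of the 10 called in WT after DSS was 8 with no filter on low counts and 1 to 7 with 1 library left out. In DKO it was 7 with no filter, 2 to 5 with 1 library left out, and 0 without baseline DKO libraries 1 and 2. In the interaction it was 0 to 1 with 1 library left out. Over all genes, DKO against WT after DSS gave 2165 calls, 1372 when only these groups were fitted, and 691 to 3064 with 1 library left out. At baseline there were 5 calls, 79 with no filter, 15 by DESeq2, 1 without baseline DKO libraries 1 and 2, and 1 to 5 with 1 library left out. DSS against baseline gave 6432 calls in WT and 2775 to 7378 with 1 library left out, and in DKO 4545, 2605 to 5788 with 1 left out and 957 without baseline DKO libraries 1 and 2. The interaction gave 302, with 1469 under no filter, 1269 by DESeq2, 966 under the GC and length correction, 86 without baseline DKO libraries 1 and 2, and 2 to 1498 with 1 left out. The cause of these shifts was not tested.

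Neurog3 had the fewest counts of the 10, at 16 to 81 per library, and no group held more than 3 libraries.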
